A study of Mus musculus with 24 samples.

Results

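The precursors of 6 secreted brain peptides were followed across the hippocampal mRNA arrays of the study, namely the genes Avp, Oxt, Trh, Hcrt, Pmch and Gal. They were chosen by gene name, with their values on these arrays and the way they vary together already known, so their levels, differences and correlations are given as a description. Where a threshold is applied to them, it counts values and supports nothing. Each of the 6 genes had 1 probe, so 6 of the 55681 non-control probes and 6 of the 36163 gene names on the array were used.

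Pups of the C57BL/6 strain, all labelled male, were killed at postnatal day 9 (P9), and both hippocampi of a pup were combined for RNA. The control pups (Con, n = 5, 0 mg/kg morphine) were left with the dam and handled little. The other pups received morphine from P5 at 2 mg/kg (MS2, n = 5) or 5 mg/kg (MS5, n = 5), together with daily isolation from the dam in a warmed cup and repeated brief exposure to nitrogen and then oxygen. No group received morphine without this stress protocol or the protocol without morphine, so the contribution of each cannot be told apart. Each pup was measured on its own 1-colour Agilent array, and values are background-adjusted, quantile-normalized log2 levels of a probe. A difference of 1 therefore stands for a doubling. A level of one probe says nothing about the level of another, so genes are compared only through their differences between arrays.

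These precursors are best known from the hypothalamus, the part of the brain that lies below the thalamus and governs hormone release, feeding and arousal. Avp and Oxt encode vasopressin and oxytocin, made by neurons of the paraventricular and supraoptic nuclei that send axons to the posterior pituitary. Trh encodes thyrotropin-releasing hormone, which drives the pituitary-thyroid axis and is also made in other forebrain regions. Hcrt encodes the orexins and Pmch encodes melanin-concentrating hormone, peptides of separate neurons of the lateral hypothalamus. Gal encodes galanin, a peptide of many hypothalamic and brainstem neurons. In the hippocampus these peptides are mostly received from incoming fibres, through receptors on local cells. The arrays measured bulk tissue, in which a change in the number of cells of a type and a change in RNA per cell cannot be told apart.

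Avp and Oxt are adjacent in the genome on opposite strands, with 0 genes listed between them. The Oxt probe mapped to chr2:130402665-130402724 and the Avp probe to chr2:130406552-130406817 in mm9, the build of the array annotation, where the Avp probe spans 266 bases. The other probes lay at chr6:92192061-92192120 (Trh), chr11:100623007-100623066 (Hcrt), chr10:87555031-87555090 (Pmch) and chr19:3411143-3411202 (Gal). The 250 bases before the annotated start of Avp, Oxt, Hcrt and Pmch are shown because Avp and Oxt were high on the same 4 arrays and Hcrt and Pmch on the same single array. The sequences are those of RefSeq in build GRCm38.p6, at chr2:130582589-130582838 on the minus strand (Avp), chr2:130575919-130576168 on the plus strand (Oxt), chr11:100762932-100763181 on the minus strand (Hcrt) and chr10:88090822-88091071 on the plus strand (Pmch). Each is written 5′ to 3′ on the strand of its gene. Capitals mark AGGTCA on either strand, the half-site of nuclear receptors, and CACGTG, a core of the E-box. They also mark ATAAA, a part of the TATA box sequence TATAAA, on the strand of the gene within the last 40 bases.
Avp: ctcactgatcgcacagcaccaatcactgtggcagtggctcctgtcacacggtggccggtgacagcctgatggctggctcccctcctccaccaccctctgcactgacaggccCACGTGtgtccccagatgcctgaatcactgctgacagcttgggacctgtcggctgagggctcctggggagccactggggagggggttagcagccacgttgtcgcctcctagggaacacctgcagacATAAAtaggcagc
Oxt: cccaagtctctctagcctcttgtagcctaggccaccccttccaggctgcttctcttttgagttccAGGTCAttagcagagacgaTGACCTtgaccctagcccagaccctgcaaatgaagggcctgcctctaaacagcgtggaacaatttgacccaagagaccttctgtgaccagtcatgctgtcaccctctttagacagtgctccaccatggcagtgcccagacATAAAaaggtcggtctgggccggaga
Hcrt: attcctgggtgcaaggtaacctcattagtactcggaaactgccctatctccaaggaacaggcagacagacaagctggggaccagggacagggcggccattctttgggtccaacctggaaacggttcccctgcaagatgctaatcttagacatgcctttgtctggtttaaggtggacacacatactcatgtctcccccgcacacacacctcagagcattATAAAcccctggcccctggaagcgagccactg
Pmch: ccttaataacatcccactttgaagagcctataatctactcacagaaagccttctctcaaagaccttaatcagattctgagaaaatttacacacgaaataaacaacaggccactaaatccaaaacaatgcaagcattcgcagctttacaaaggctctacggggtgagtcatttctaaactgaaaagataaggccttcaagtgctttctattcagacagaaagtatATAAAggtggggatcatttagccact

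AGGTCA or its complement TGACCT was found in Oxt and Trh among the 6 genes and in 14.0% of the 32851 RefSeq promoters of the same length. CACGTG was found in Avp alone of the 6, and in 6.02% of promoters. ATAAA within the last 40 bases was found in Avp, Oxt, Hcrt and Pmch, and in 5.5% of promoters. In Avp it lay at bases -13 to -9 from the start. The full TATAAA, on either strand of the 250 bases, was found in Hcrt and Pmch alone of the 6, and in 12.4% of promoters. Avp and Oxt shared neither AGGTCA nor CACGTG in these windows, and for the other pair ATAAA was the only one of the 3 capitalized motifs in Hcrt and in Pmch. These are matches of letters, described without any measurement of binding.

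A pair of arrays, MS2 replicate 4 and MS5 replicate 9, stood apart on markers of region or sex, and the values below are given with and without them where they matter. On MS2 replicate 4, 36 probes lay more than 2 (log2) above every other array, against 0 to 17 on the other 14 arrays, and Pmch led this list by a gap of 5.78. The list of hippocampal principal neuron markers had a mean level of 9.70 on that array against 10.97 to 11.28 on the others, and 14 of its 16 probes were at their lowest there. The mean of the thalamus and habenula markers was 1.99 above that of the Con arrays there, against -0.06 to 0.77 on the others, with 14 of 16 probes at their highest. The array of MS5 replicate 9 carried the female-specific transcript Xist at 11.34 against 5.89 to 6.08 on the others, and the Y-linked Eif2s3y at 6.77 against 12.11 to 12.64, which goes against its label. Of the 16 hippocampal marker probes, 15 were well above background on every array, including the dentate gyrus gene Prox1 and the CA1 gene Wfs1. The arrays lay on 2 slides, each with all 3 groups. The median spot signal was 100.4 to 128 in Con, 104 to 126 in MS5 and 51.0 to 128 in MS2, where MS2 replicate 5 was the dim array.

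The probes of 5 of the 6 precursors were well above background on all 15 arrays. Pmch was well above background on 13, the exceptions being Con replicates 15 and 18, so its Con values are close to the lower limit of the measurement.

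**Figure D1:**
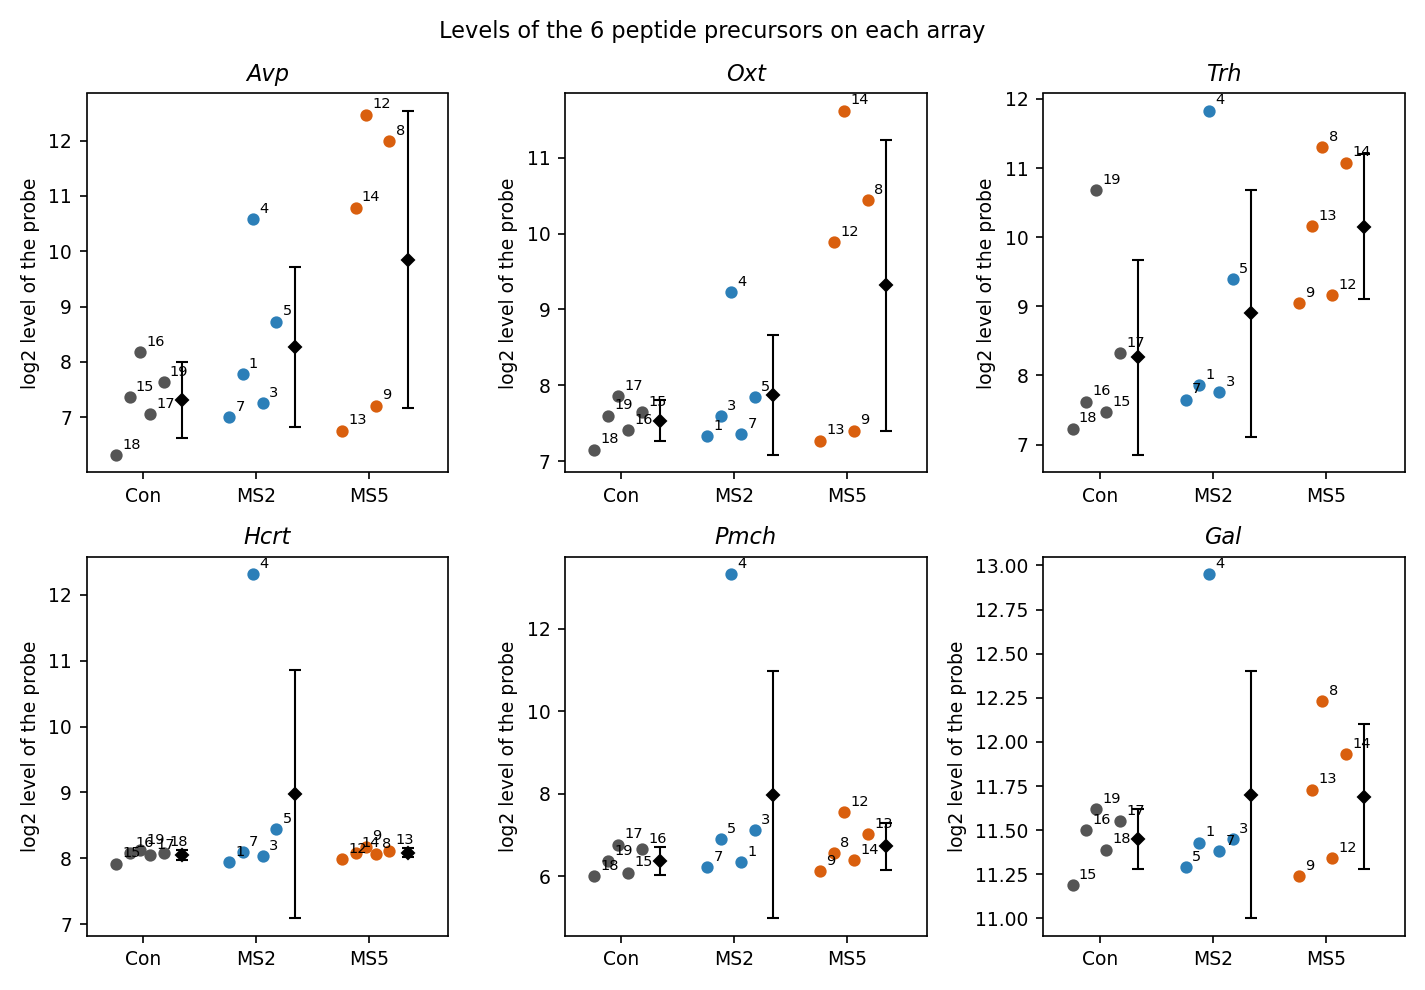
Log2 level of the 6 precursor probes (vertical axes, each with its own range) on the 5 arrays of each group, with replicate numbers beside the points. Diamonds and bars are the group mean and SD. Avp and Oxt were split within MS5, with replicates 8, 12 and 14 above replicates 9 and 13, whereas Hcrt and Pmch were high on MS2 replicate 4.

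The posterior pituitary hormone precursors Avp and Oxt had their highest levels on the same 3 MS5 arrays. Avp had log2 levels of 7.36, 8.18, 7.06, 6.32 and 7.64 on Con replicates 15 to 19. On MS2 replicates 1, 3, 4, 5 and 7 it had 7.78, 7.26, 10.58, 8.73 and 7.0, and on MS5 replicates 8, 9, 12, 13 and 14 it had 11.99, 7.21, 12.47, 6.76 and 10.79. MS5 replicates 8, 12 and 14 were therefore above every Con and every MS2 array, while replicates 9 and 13 were inside the range of Con. MS2 replicates 4 and 5 were above every Con array. Relative to the Con mean the levels were 25.7-fold on MS5 replicate 8, 35.7-fold on replicate 12, 11.2-fold on replicate 14 and 9.61-fold on MS2 replicate 4.

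The group means of Avp were 7.31 ± 0.69 in Con, 8.27 ± 1.45 in MS2 and 9.85 ± 2.69 in MS5 (log2, SD, n = 5). MS5 minus Con was 2.53 with a standard error (SE) of 1.04, and MS2 minus Con was 0.96 with the same SE. The means stood in the order of dose, but the ranges of neighbouring groups overlapped, and the SD grew along with the mean. The difference of MS5 from Con was 2.47 on slide 1 and 2.25 on slide 2. It was 3.19 without MS5 replicate 9, 1.88 without MS5 replicate 12 and 2.0 without MS5 replicate 8. The MS2 difference was 0.38 without MS2 replicate 4.

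Oxt had log2 levels of 7.64, 7.41, 7.86, 7.15 and 7.60 on the Con arrays in the same order. The MS2 arrays had 7.33, 7.59, 9.23, 7.84 and 7.35, and the MS5 arrays 10.44, 7.40, 9.89, 7.27 and 11.62. Again MS5 replicates 8, 12 and 14 were above all arrays of the other groups, and replicates 9 and 13 were within the Con range. In MS2 only replicate 4 was above Con. The highest array for Oxt was MS5 replicate 14, at 17.0-fold the Con mean, whereas for Avp it was MS5 replicate 12.

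The mean level of Oxt was 7.53 ± 0.27 in Con, 7.87 ± 0.79 in MS2 and 9.32 ± 1.92 in MS5 (SD, n = 5). MS5 exceeded Con by 1.79 (SE 0.69) and MS2 exceeded Con by 0.34 (SE 0.69). The MS5 difference was 1.30 within slide 1 and 2.13 within slide 2, 2.27 without MS5 replicate 9 and 1.22 without MS5 replicate 14. Without MS2 replicate 4 the MS2 difference was 0.00.

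The level of Trh on all MS5 arrays was above most Con arrays, but it was also high on 1 control array. Con replicates 15 to 19 had 7.47, 7.62, 8.32, 7.23 and 10.68. The MS2 arrays had 7.86, 7.76, 11.83, 9.39 and 7.65, and the MS5 arrays 11.30, 9.05, 9.16, 10.16 and 11.08. All 5 MS5 arrays were above Con replicates 15 to 18, and 2 of them, replicates 8 and 14, were above Con replicate 19 as well. The highest of all 15 arrays was MS2 replicate 4.

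Trh averaged 8.26 ± 1.41 in Con, 8.90 ± 1.79 in MS2 and 10.15 ± 1.05 in MS5 (SD, n = 5). The difference from Con was 1.89 (SE 0.83) for MS5 and 0.64 (SE 0.83) for MS2. The slides gave unlike values for MS5, with 3.06 on slide 1 (2 MS5 and 3 Con arrays) and 0.61 on slide 2 (3 MS5 and 2 Con arrays), where Con replicate 19 lay. Without Con replicate 19 the MS5 difference was 2.49, and without MS2 replicate 4 the MS2 difference was -0.10.

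The lateral hypothalamic precursors Hcrt and Pmch were set apart on 1 array. Hcrt lay between 7.92 and 8.13 in Con, with a median of 8.08, and between 7.99 and 8.18 in MS5, also with a median of 8.08. On the MS2 arrays it had 7.94, 8.03, 12.31, 8.45 and 8.10. MS2 replicate 4 was thus 19.1-fold above the Con mean and 3.86 (log2) above the next array, MS2 replicate 5. The other 13 arrays lay between 7.92 and 8.18. MS5 minus Con was 0.03 (SE 0.63) and MS2 minus Con was 0.91 (SE 0.63), which became 0.08 without MS2 replicate 4. All 3 groups share 1 estimate of the spread, so that array widened the SE of MS5 minus Con too. Without it this SE was 0.08.

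Pmch had levels of 6.08, 6.65, 6.76, 5.99 and 6.37 in Con, 6.33, 7.12, 13.33, 6.90 and 6.22 in MS2, and 6.55, 6.12, 7.55, 7.01 and 6.38 in MS5. MS2 replicate 4 was 5.78 (log2) above the next array, MS5 replicate 12. Since 2 of the 5 Con arrays were not well above background, no fold over Con is given for single arrays. MS2 minus Con was 1.61 (SE 1.02), and 0.28 without MS2 replicate 4. MS5 minus Con was 0.35 (SE 1.02, and 0.26 without MS2 replicate 4). It was 0.14 without MS5 replicate 12, 0.1 with the slide as a block, 0.74 with a normexp offset of 0 and 1.18 with the scanner's processed signal. The last of these settings gave 2.55 for MS2 minus Con, and an offset of 0 gave 2.2.

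Gal had log2 levels of 11.19, 11.50, 11.55, 11.39 and 11.62 in Con, 11.43, 11.45, 12.95, 11.29 and 11.38 in MS2, and 12.23, 11.24, 11.34, 11.73 and 11.93 in MS5. It was highest on MS2 replicate 4, and MS5 replicates 8, 13 and 14 were above every Con array while replicates 9 and 12 were within the Con range. The differences from Con were 0.24 (SE 0.28) for MS5 and 0.25 (SE 0.28) for MS2. The second of these was -0.06 without MS2 replicate 4, and the SE of the first was then 0.15. The difference for MS5 was 0.6 within slide 1 and -0.06 within slide 2.

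All 6 genes had a positive difference from Con in both treated groups, with a median of 1.07 in MS5 and 0.77 in MS2, where the median of all probes was 0.00 in each. The MS2 part of this rested on MS2 replicate 4, without which the median of the 6 was 0.04 and Trh and Gal were at -0.1 and -0.06. In MS5 the sign was not stable for Hcrt and Gal. Hcrt was at 0.03, but at -0.13 with the slide as a block, and Gal was at -0.06 within slide 2. The differences between MS5 and MS2 also depended on MS2 replicate 4. Avp, Oxt and Trh were higher in MS5 by 1.57 (SE 1.04), 1.45 (SE 0.69) and 1.25 (SE 0.83). For Hcrt, Pmch and Gal MS5 minus MS2 was -0.88 (SE 0.63), -1.26 (SE 1.02) and -0.01 (SE 0.28). Without MS2 replicate 4 these 3 were -0.04, 0.08 and 0.3, and Avp, Oxt and Trh were at 2.15, 1.79 and 1.98. The contrasts share arrays, so their values are not independent.

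At the threshold of the study, a fold change over 1.5 and a limma p under 0.05 before adjustment, Avp, Oxt and Trh were past it for MS5 against Con, all higher, where 0.0449% of all probes were called higher and 0.228% in either direction. None of the 6 was past it for MS2, where 0.0233% of all probes were called. Because these genes were selected on the same arrays, nothing is drawn from these counts. After Benjamini-Hochberg adjustment limma called 0 of all 55681 probes in either contrast, with 2173 probes for MS5 and 2324 for MS2 at an unadjusted p under 0.05. Without MS5 replicate 8, and likewise without MS5 replicate 14, none of the 6 genes was past the threshold, and without Con replicate 18 Oxt alone was. With the slide as a block Trh was not past it, at a difference of 1.66, and when each of the 15 arrays was omitted in turn Trh stayed past it 8 times, Avp 11 times and Oxt 13 times.

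**Figure D2:**
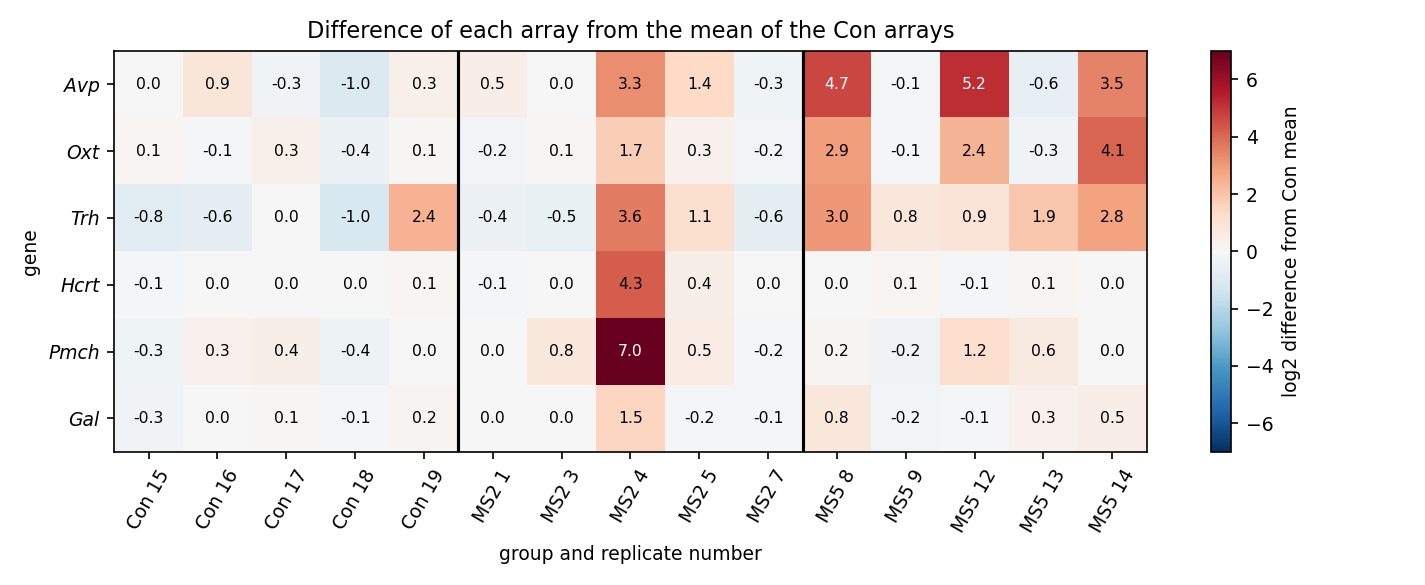
Difference of each array (columns, by group and replicate number) from the mean of the Con arrays for each precursor (rows), as log2 values printed in the cells and coloured from blue (lower) to red (higher). The red cells of Avp and Oxt lie on MS5 replicates 8, 12 and 14 and MS2 replicate 4, and the darkest cell is Pmch on MS2 replicate 4.

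The 6 genes did not vary as one block. Over the 15 arrays Avp and Oxt had a Pearson r of 0.88 and a Spearman rho of 0.79, and an r of 0.84 after the group means were subtracted. The r was 0.86 without the 2 arrays farthest from the median of Avp and 0.88 without MS2 replicate 4. It came largely from MS2 replicate 4 and MS5 replicates 8, 12 and 14, since it was 0.52 over the other 11 arrays and -0.04 when the 2 farthest of those were left out too. The ratio of the pair also differed between arrays: Avp exceeded its Con mean by more than Oxt did on MS5 replicates 8 and 12, and by less on replicate 14.

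Hcrt and Pmch had an r of 0.97 with a rho of 0.13, and the r was 0.07 without MS2 replicate 4. Their correlation thus rested on a single array. The same array raised the r of Gal with Hcrt and with Pmch to 0.79 each, against -0.07 and 0.07 without it.

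The r of Trh was 0.63 with Avp, 0.66 with Oxt and 0.77 with Gal, and without MS2 replicate 4 these were 0.58, 0.66 and 0.74. With Hcrt and Pmch its r was 0.51 each, and 0.28 and 0.19 without that array. Trh and Gal kept a rho of 0.57 on those 14 arrays. Avp and Hcrt had an r of 0.28, and -0.07 without MS2 replicate 4. Of MS2 replicate 4 and the 3 MS5 arrays that were high in Avp, the MS2 array alone was high in Hcrt, so a high Avp level occurred both with and without a high Hcrt level. In all, 15 pairs were computed, and all the points come from the same 15 RNA samples.

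**Figure D3:**
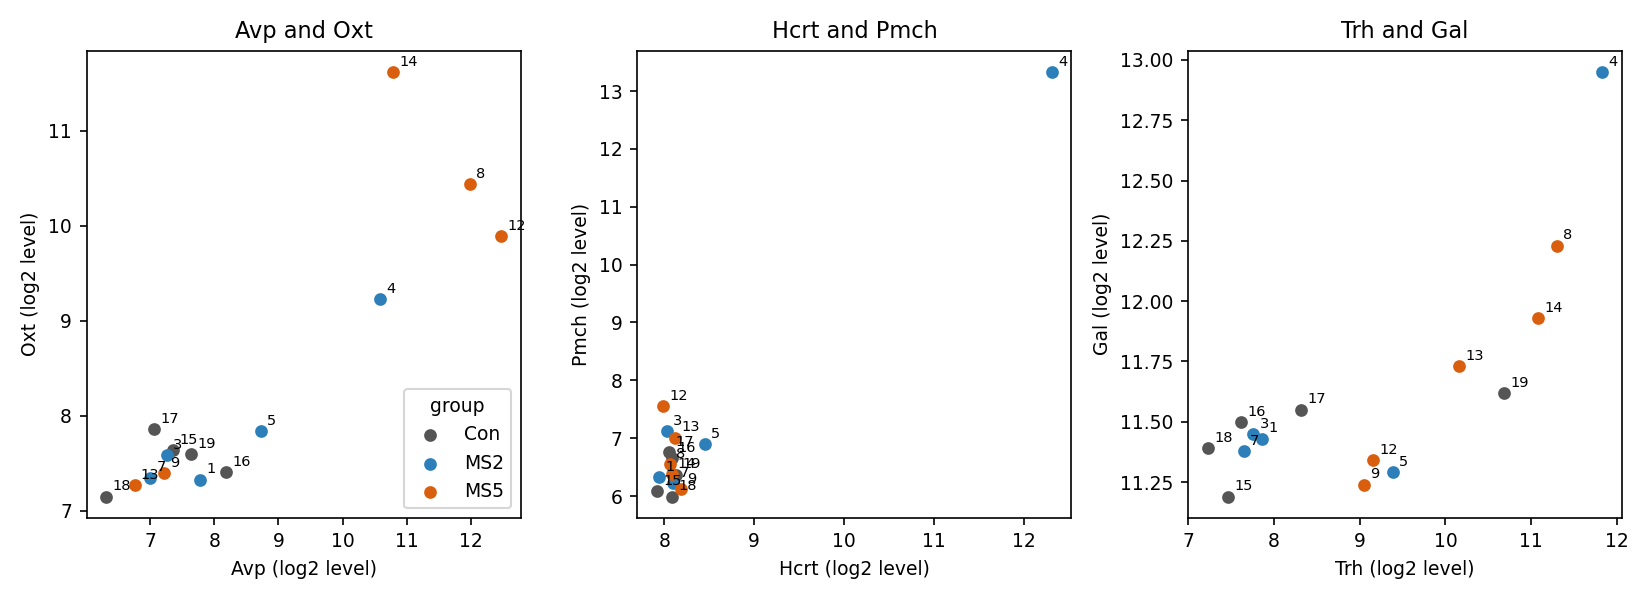
Log2 levels of 2 precursors against each other on the 15 arrays, coloured by group and labelled with replicate numbers. Avp and Oxt were high together on 4 arrays, and Hcrt and Pmch on MS2 replicate 4 alone. Trh and Gal were both high on MS2 replicate 4 and MS5 replicates 8 and 14. MS2 replicate 5 had a Trh level of 9.39 but the lowest Gal level of MS2, 11.29.

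Genes whose levels followed each precursor most closely were ranked by Pearson r over the 15 arrays, among the 40100 probes that all 5 arrays of some group showed well above background. For Avp these were Men1, which encodes the tumour suppressor menin (r = 0.944), the axon guidance gene Ntn1 (r = 0.911) and 6430519N07Rik (r = 0.908). For Oxt they were the transcriptional corepressor Skor1 (r = 0.956), Rbm33 (r = 0.92) and Mlf2 (r = 0.91). For Trh they were 2310076G05Rik (r = 0.937), the transcript ENSMUST00000144411 (r = 0.931) and the fatty acid transporter Slc27a2 (r = 0.928). For these 9 genes r stayed at 0.90 to 0.95 without MS2 replicate 4. For Avp and Oxt the highest levels lay on MS5 arrays, so leaving out MS2 replicate 4 could change their r little. How far the r of their genes rests on those MS5 arrays was not tested. The genes named for each precursor, here and below, were picked as the closest of 40100 probes on the same arrays. A high r therefore follows in part from the choice. Avp ran from 6.32 to 12.47, and its 3 genes had narrow spans beside it. These were 12.61 to 13.62 for Men1, 6.23 to 7.11 for Ntn1 and 13.07 to 13.54 for 6430519N07Rik. Oxt ran from 7.15 to 11.62, while Skor1 ranged from 6.52 to 8.14, Rbm33 from 10.3 to 10.91 and Mlf2 from 9.89 to 10.22.

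Hcrt was followed most closely by genes of the midbrain and habenula: the homeobox gene En2 (r = 0.994), the dopamine transporter Slc6a3 (r = 0.981) and the habenular factor Pou4f1 (r = 0.98). Pmch was followed by Irx6 (r = 0.981), 4930412O13Rik (r = 0.97) and the dorsal midbrain and neural crest factor Pax7 (r = 0.969). All 6 of these genes were highest on MS2 replicate 4, and without it their r fell to between 0.07 and 0.68. Gal was followed by the potassium channel genes Kcnh8 (r = 0.963) and Kcnh2 (r = 0.962) and the cytokine gene Il33 (r = 0.962). These 3 kept an r of 0.89 without that array.

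The levels of the region marker lists are given beside those of the precursors. The hypothalamic transcription factors (18 genes, 19 probes) had mean levels of 7.0 to 7.56 in Con, 7.01 to 7.85 in MS2 and 6.95 to 7.77 in MS5. The 4 highest arrays were MS2 replicate 4, MS5 replicates 14 and 8 and Con replicate 19, and the same 4 arrays were the highest for Trh. Over the 15 arrays the mean of this list had an r of 0.89 with Trh, 0.79 with Gal, 0.78 with Oxt and 0.75 with Avp, and of 0.51 with Hcrt and 0.57 with Pmch. Without MS2 replicate 4 the values for the first 4 genes were 0.85, 0.75, 0.80 and 0.74, and those for Hcrt and Pmch were 0.08 and 0.37. Probes with a large spread weigh most in such a mean. The SD within MS5 was 1.56 for Six3 and 1.52 for Isl1, against 0.04 for Otp. These r therefore do not show that the genes of the list varied together.

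Of the 19 factor probes 10 were well above background on all 15 arrays and 2, those of Otp and Six6, on none. Otp, Sim1, Arnt2 and Pou3f2 take part in forming the neurons that make Avp and Oxt, and of these Arnt2 and Pou3f2 were well above background on all 15 arrays, Sim1 on 1 and Otp on none. On the thalamus and habenula list, the means beside MS2 replicate 4 were highest on MS5 replicates 8 and 13, at 9.79 and 9.63, and the other 12 arrays lay at 8.95 to 9.15. This list had an r of 0.93 with Gal, 0.89 with Pmch, 0.88 with Hcrt, 0.68 with Trh, 0.41 with Avp and 0.34 with Oxt. Without MS2 replicate 4 these were 0.78, 0.18, -0.09, 0.63, 0.34 and 0.36. For the hippocampal markers r was -0.85 with Gal, -0.94 with Pmch, -0.97 with Hcrt, -0.63 with Trh, -0.36 with Avp and -0.27 with Oxt. Without that array these were -0.51, 0.02, -0.28, -0.77, -0.34 and -0.32. Whether tissue from neighbouring regions had a part in the levels of the 6 genes was not tested.

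**Figure D4:**
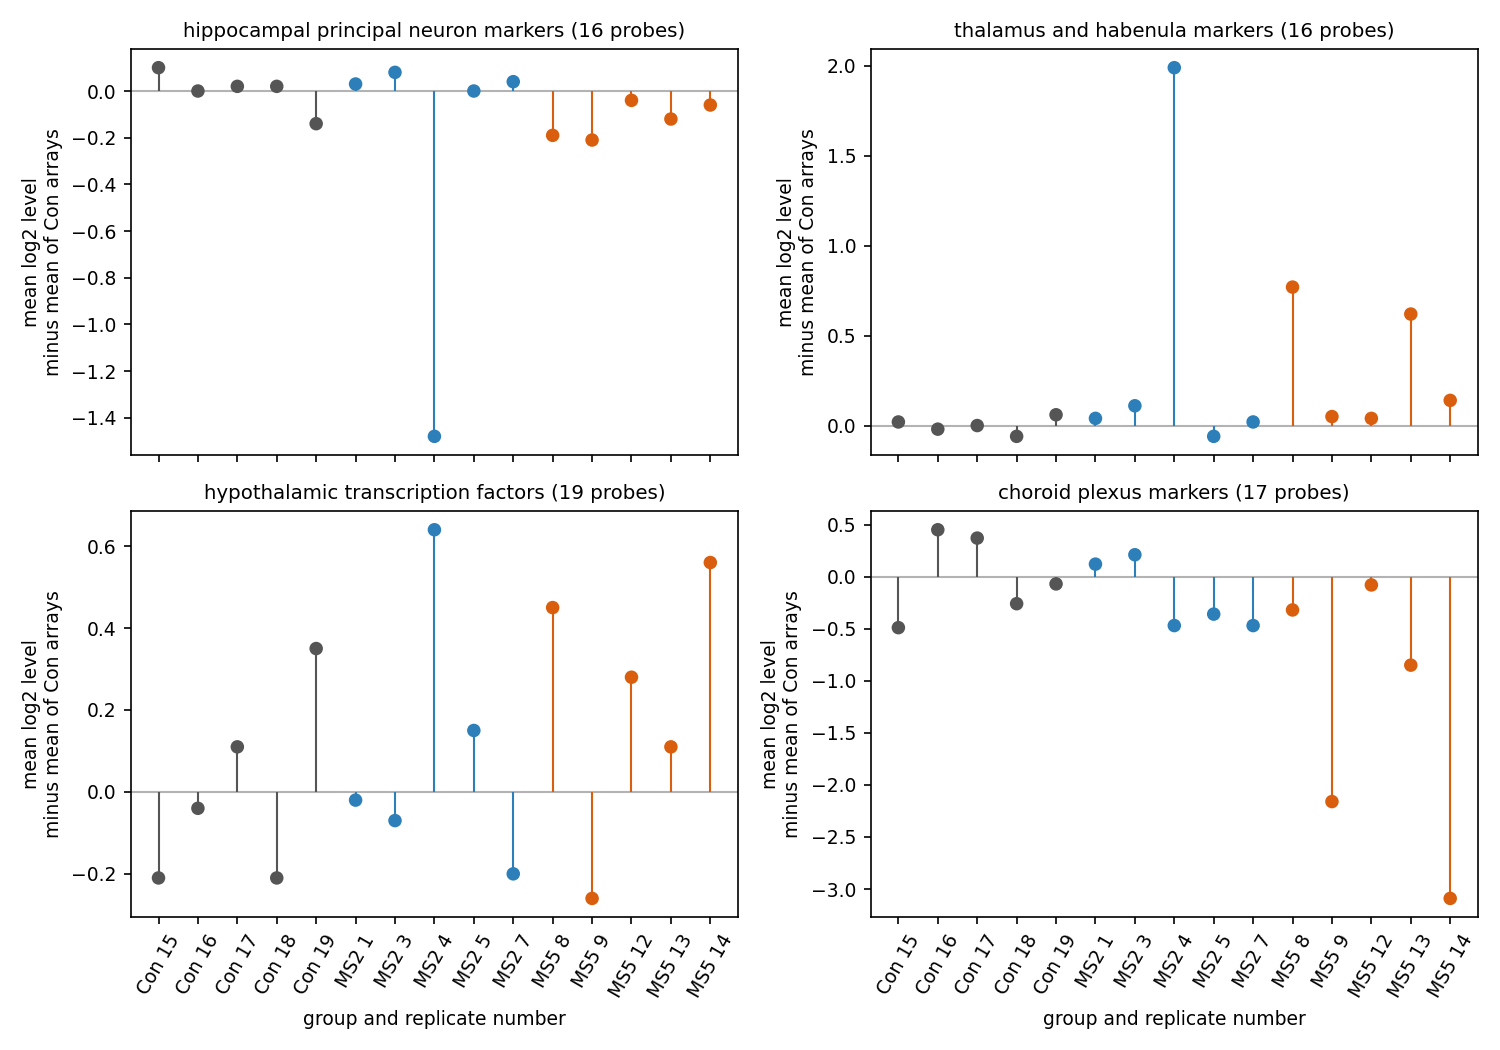
Mean log2 level of 4 marker lists on each array minus the mean of the Con arrays (vertical axes, each with its own range), by group and replicate number. The hippocampal markers were lowest and the thalamus and habenula markers highest on MS2 replicate 4, and the choroid plexus markers were lowest on MS5 replicates 14 and 9.

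The choroid plexus markers did not follow Avp. Their mean level was 8.29 on MS5 replicate 14 and 9.22 on MS5 replicate 9, of which the first was high and the second low in Avp and Oxt, and it was 11.30 on MS5 replicate 12, where Avp was highest. For MS5 against Con 15 of the 17 probes were called lower, where 0.183% of all probes were. The list was chosen with earlier results of these data known and holds genes that the paper reports as lowered. The count is therefore a description and supports nothing. These included the folate receptor Folr1, which fell by 2.00 (SE 0.65), Kcne2, which fell by 1.72 (SE 0.70), Kcnj13, which fell by 1.56 (SE 0.46), and Calml4, which fell by 1.49 (SE 0.49). None passed the Benjamini-Hochberg adjustment, with limma adjusted p of 1.00. The count was 8 without MS5 replicate 9, and 9 without MS5 replicate 14 or Con replicate 16. Over the 15 arrays the mean of this list had an r of -0.18 with Avp and -0.47 with Oxt.

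Of the 12 genes for the receptors of these peptides, none of the 14 probes was called in MS5 or MS2 against Con, and 0 had an unadjusted p under 0.05 in limma in either contrast. The vasopressin receptor Avpr1a, the main one in brain, had the largest MS5 difference, -0.39 (SE 0.26), and -0.50 (SE 0.26) in MS2. Its level was 7.85 on MS2 replicate 4, against 8.39 to 9.71 on the other 14 arrays. The oxytocin receptor Oxtr differed from Con by 0.04 (SE 0.11) in MS5 and by -0.18 (SE 0.11) in MS2. Avpr1b differed by -0.07 (SE 0.10) in MS5, and both probes of the renal receptor Avpr2 were well above background on no array.

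The thyrotropin-releasing hormone receptors Trhr and Trhr2 differed by 0.00 (SE 0.22) and 0.29 (SE 0.25) in MS5. The orexin receptor Hcrtr1 differed by 0.09 (SE 0.16) and 0.06 (SE 0.14) at its 2 probes, and Hcrtr2 by 0.04 (SE 0.06). On MS2 replicate 4 Hcrtr1 stood at 12.25 against 11.15 to 11.53 on the other arrays. Mchr1, the receptor of melanin-concentrating hormone, differed by 0.09 (SE 0.14), and the galanin receptors Galr1, Galr2 and Galr3 by 0.08 (SE 0.13), -0.07 (SE 0.06) and 0.00 (SE 0.06). The median difference of the receptor probes was 0.04 in MS5 and 0.02 in MS2.

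Genes for the processing, storage and breakdown of peptides (19 genes, 25 probes) were close to Con as well, with medians of 0.04 in MS5 and 0.02 in MS2 and none called. Under an unadjusted p of 0.05 there were 2 probes in each contrast, both of Ptprn2, a protein of dense-core vesicles, at 0.31 (SE 0.14) and 0.29 (SE 0.10) in MS5. Another probe of Ptprn2, well above background on all 15 arrays, differed by only 0.06 (SE 0.06) in MS5 and 0.07 (SE 0.06) in MS2. The vesicle release factor Cadps2 had the largest difference in size, -0.36 (SE 0.35).

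**Figure D5:**
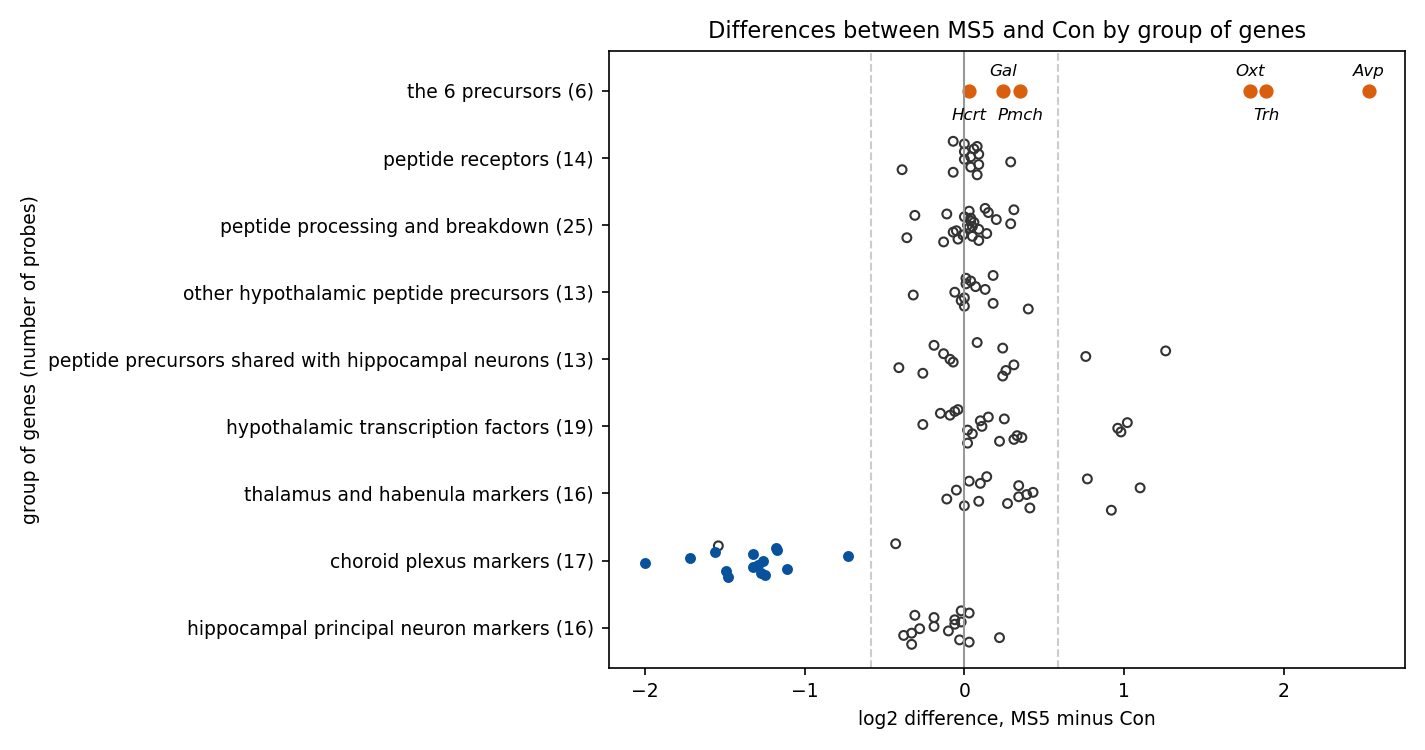
Difference between MS5 and Con (horizontal axis, log2) for the 6 precursors and for each probe of the other groups of genes (rows, number of probes in brackets). Filled blue points were called, open points were not, and dashed lines mark 1.5-fold in either direction. Calls among the lists were those of the choroid plexus markers.

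Precursors of other peptides were read alongside. Of 11 genes for further hypothalamic peptides (13 probes), among them Pomc, Agrp, Ghrh and Kiss1, none was called in MS5 or MS2, with 1 probe, of Nms, at an unadjusted p under 0.05 in MS5 and 0 in MS2. The largest MS5 differences were those of the circadian output gene Prok2, 0.40 (SE 0.23), and of Ucn3, -0.32 (SE 0.18). Their median was 0.01 in MS5. The mean of this list had an r of 0.84 with Oxt (rho 0.71) over the 15 arrays, and the same r without MS2 replicate 4. However, the mean level of the list was 7.17 on MS5 replicate 14, the array highest in Oxt, and 6.89 to 7.02 on all others. How far this r rests on MS5 replicate 14 was not tested.

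Of 12 precursors that hippocampal neurons also express (13 probes), such as Sst, Npy and Cck, none was called in either contrast and 0 had an unadjusted p under 0.05. The largest MS5 differences were those of the enkephalin precursor Penk, 1.26 (SE 0.89), and the substance P precursor Tac1, 0.76 (SE 0.45). Without Con replicate 19 both were called in MS5, Penk at 1.88 and Tac1 at 1.08, and without both arrays that stood apart Tac1 was called at 0.96.

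None of the 19 probes of hypothalamic transcription factors was called in MS5 or MS2, with 1 probe at an unadjusted p under 0.05 in MS5 (Sim1, 0.22, SE 0.06) and 0 in MS2. Sim1 was called higher in MS5 with a normexp offset of 0 (1.39) and with the scanner's processed signal (1.33), on a probe well above background on 1 array. The largest MS5 differences were those of Six3, 1.02 (SE 0.84), and Isl1, 0.98 (SE 0.80). Without MS2 replicate 4 and MS5 replicate 9 the probes of Six3 (1.65), Isl1 (1.56) and Foxb1 (1.25) were called higher in MS5, a count of 3 that the full set of arrays did not give, and without MS2 replicate 4 alone Foxb1 was called (0.96). Six3 stood at 11.49 on MS2 replicate 4 and Foxb1 at 10.58, each the highest of the 15 arrays. Among the thalamus and habenula markers Tcf7l2 and Gbx2 had the largest MS5 differences, 1.1 (SE 0.82) and 0.92 (SE 0.59). Other probes of Tcf7l2 differed by 0.77 (SE 0.69) and 0.10 (SE 0.21). Among the hippocampal markers the largest were those of Fibcd1 and Dsp, at -0.38 (SE 0.26) and -0.33 (SE 0.27). Another probe of Dsp, well above background on 1 array, was at -0.03 (SE 0.06). No probe was called in either list.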

How the data were processed

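Spot intensity as deposited by the authors came from Agilent Feature Extraction 10.7.1.1 (mm9 annotation). The series values that the authors deposited are log2 levels after normexp background adjustment at an offset of 50 and quantile normalization, which rebuilding from the intensities matched to 5e-09. These log2 values were used as the level of each of 55681 non-control probes. Groups were taken from the labels and compared in 1 limma fit of 3 groups (R 4.3.3, limma 3.58.1), adjusted by Benjamini-Hochberg over all probes. The fit was tested on simulated data. The 6 genes and the gene lists were chosen with earlier results of these data known.

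Named were the 6 genes, every receptor, of each other list up to 4 called genes with the largest difference or otherwise the 2 largest MS5 differences, and the 3 genes most like each precursor by r. Nms, Ptprn2, Sim1, Foxb1, Otp, Six6, Arnt2 and Pou3f2, marker genes given as a check of the tissue, and alternatives' calls were named after their values were seen. Flags for signal well above background are the scanner's, and 0 spots were saturated. The number of arrays limits the precision. Alternatives were spots averaged, the scanner's processed signal at the 75th percentile, an offset of 0, only probes well above background, array weights, the slide as a block, only the 2 groups compared and leaving out each array. Leaving out both arrays that stood apart, or the 4 arrays highest in Avp, and using only the 2 groups for the 6 genes, were chosen after seeing the data. Correlations and motif matches were computed with Python 3.11.15, pandas 2.3.3 and scipy 1.17.1. The miR arrays (n = 3 per group) were not used here.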

Additional observations from a re-analysis of the deposited data

Results flagged for a closer look

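Within groups of 5 arrays, the gap between an extreme array and its nearest neighbour was divided by the range of the group and set against Dixon's critical value of 0.71, which about 1 group in 20 passes by chance. The 6 genes were chosen with their pattern over these arrays known, so their ratios are a description and not a test. Ratios were computed for 30 groups of values, 18 of them of the 6 genes. All 6 ratios past the critical value belong to MS2 replicate 4 within MS2 and are not independent of each other. The ratio was 0.904 for Gal, 0.883 for Hcrt, 0.873 for Pmch and 0.73 for Oxt, which were higher there than on the other MS2 arrays. It was 0.919 for the mean of the thalamus and habenula markers, also higher, and 0.95 for the mean of the hippocampal principal neuron markers, which was lower. Not past the critical value on MS2 replicate 4 were Avp (0.515), Trh (0.586) and the mean of the hypothalamic transcription factors (0.587). What set MS2 replicate 4 apart was not tested.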

How the results depend on the processing

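For MS5 against Con, Avp, Oxt and Trh kept a positive difference in all alternatives. Counts of the 6 genes past the threshold ran from 0 (without MS5 replicate 8 or 14) to 3 when single arrays were left out, and Oxt stayed past it in 13, Avp in 11 and Trh in 8 of those 15 fits. The slide as a block left 2, without Trh. For MS2 against Con, the difference within slide 2 was 2.28 for Hcrt and 3.61 for Pmch. Differences that were not past the threshold could change sign: for MS2 Trh ran from -0.20 (array weights) to 1.46 (within slide 2). The count of receptor and processing probes called was 1 for MS5 with an offset of 0 (Avpr2, well above background on no array), and 0 to 1 for MS2 when single arrays were left out (Avpr1a without MS2 replicate 3). For other precursors in MS5 it was 0 to 2 when single arrays were left out (Penk and Tac1 without Con replicate 19) and 1 without both arrays that stood apart. For hypothalamic factors in MS5 it was 1 with the 75th percentile and with an offset of 0 (Sim1 both times), 1 in the fit of only 2 groups (Foxb1), 0 to 1 when single arrays were left out and 3 without both arrays that stood apart. The cause of these changes was not tested. The r of Hcrt and Pmch lay between 0.07 and 0.98 when single arrays were left out. Over the 11 arrays without the 4 highest in Avp, r was 0.52 for Avp and Oxt, 0.19 for Avp and Trh, 0.21 for Oxt and Trh and 0.49 for Trh and Gal. Each of the 6 genes had 1 probe, so other probes of a gene could not be compared. No paired analysis was made. The paper states that treated pups shared a home cage with untreated littermates, but the sample labels used here name no litter. Pups of a litter could therefore not be matched.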
